A study of Arabidopsis thaliana with 2 samples.

Results

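The GDSL genes are the Arabidopsis thaliana genes that the deposited array annotation describes as GDSL lipases, acylhydrolases or GDSL-motif lipases. Genes were taken as members where the locus lies on a nuclear chromosome and the description holds the word GDSL, which gave 89 probes under 87 gene names. Of these names 86 are single loci, set among 25416 loci with a probe in all, and the last is a probe shared by AT3G26420 and AT3G26430 that cannot be given to either gene. The rule uses no measured value. RNA came from T87, a suspension cell line of Arabidopsis grown in modified LS medium under a daily light and dark cycle, with no treatment stated. Cells were collected 1 day and 8 days after inoculation of fresh medium, with 1 array for each day and no replicate culture, so nothing below has a replicate check and no test was made. On each array polysomal RNA (fractions 1 to 3 of the 8 collected from a sucrose gradient) was set against a second pool, named total RNA in the design text and nonpolysomal RNA in the sentence on the spike-in RNAs.

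GDSL enzymes are serine hydrolases with the catalytic serine in a short GDSL motif near the N-terminus, and their fold is that of the SGNH hydrolases. In plants they form a large family of mostly secreted esterases and lipases. Some polymerise or cut cutin, the polyester of the plant cuticle, some coat the pollen grain, and others act in defence or in the endomembrane system. An mRNA for a secreted protein is read by ribosomes bound to the endoplasmic reticulum, and its share in heavy gradient fractions shows how much of it is loaded with several ribosomes.

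The polysome ratio of a gene is the deposited log10 ratio of its array feature, given here as percent of the second pool. The column names and the design text make the polysomal pool the likely numerator. The labels do not settle it, since the sample descriptions and the second channel are both given as polysomal while the molecule of the first channel is given as total RNA. On day 1 a ratio above 100%, which a part of total RNA cannot reach, was found for 74 of 19696 genes (0.376%), and 99.6% were at or below it. Every direction below rests on this reading, and with the pools exchanged lower and higher, and low and high ranks, would change places. If the second pool was nonpolysomal RNA, each percent refers to the mRNA found outside polysomes, which leaves the ranking of genes on a given day as it is. Features without signal did not give 0 but shared a value, 53.8% on day 1 and 25.1% on day 8 over 757 negative-control features. That value would pass for a change of -1.10 on the log2 scale, so features at it were left out on each array. On day 1 it lies in the upper tail, with 3.23% of all genes above it, and a weak signal would place a gene near there. On day 8 it lies close to the ratio of the median gene, so a gene truly at about 25% cannot be told from a gene without signal there. Different probes of the same gene differed in their change by a median SD of 0.30 on the log2 scale (557 genes), and changes smaller than that are within the usual spread between probes. All markers fixed for green cells (RBCS1A, CAB1, LHCB2.1) and dividing cells (CYCB1;1, MCM2) had signal on both days. The guard cell and trichome markers FMA and GL1 and the root hair marker EXPA7 had none on either day, while COBL9, also of root hairs, and the pollen and anther markers GRP17, AGP6 and AGP11 had signal on both days, and the seed markers CRA1, CRU3 and AT2S1 on day 1 alone.

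Many members of the family gave no signal in these cells. Signal on both days was found for 46 of the 86 GDSL genes, 53.5%, where 77.5% of all genes had it. A further 9 had signal on day 1 alone (10.5%, all genes 6.63%) and 4 on day 8 alone (4.65%, all genes 4.97%). The other 27 had signal on neither day, which is 31.4% against 10.9% of all genes. The 13 members on chromosome 3 all had signal on both days. Of relatives on that chromosome without GDSL in their description, LTL1 and AT3G11210 had signal on both days and ESM1 on neither. The split by chromosome was not among the planned results, and shares of all genes per chromosome are not given. On the other chromosomes signal on both days was found for 18 of 36 members on chromosome 1, 5 of 12 on chromosome 2, 3 of 6 on chromosome 4 and 7 of 19 on chromosome 5. Of the 46, 22 lay within 0.25 (log2) of the no-signal value on at least 1 day. The share of all genes within that distance is not given, so this count is no result about the family. Absence of signal here means a feature at the shared value, so a low transcript and a probe that works poorly cannot be told apart.

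The 46 genes with signal had a median polysome ratio of 40.4% on day 1 and 26.0% on day 8, with ranges from 9.68% to 131% and from 5.04% to 81.8%. The median over all genes was 36.0% and 24.3%. On day 1 the members were spread more widely than genes at large, with quartiles of 28.4% and 46.6% against 32.1% and 39.8%, an interquartile range of 0.72 against 0.31 on the log2 scale. At a wider tolerance of 0.05 (log10) around the no-signal value, which left 33 members, these were 0.66 and 0.32. On day 8 the interquartile ranges were 1.08 and 0.99. On the log2 scale the median change from day 1 to day 8 was -0.62 (0.649 of the day 1 ratio), and that of all genes was -0.52. Lower ratios on day 8 were found for 37 members and higher ones for 9, where 81.4% of all genes were lower and 18.5% higher. Of the 46 members 11 (23.9%) were at least 2-fold lower, against 25.6% of all genes, and 1 was at least 2-fold higher, against 1.21%. The count of 11 was 5 (10.9%, all genes 16.0%) with the median spike-in RNA set to no change and 6 (13.0%, all genes 17.7%) with nonpolysomal RNA as the second pool. It was 11 of 33 (33.3%, all genes 29.6%) at the wider tolerance. Relative to the median gene 27 members lay below and 19 above, where 50.0% of all genes lie on each side, 5 were at least 2-fold lower (10.8% of all genes) and 2 at least 2-fold higher (4.43%). These shares are near those of all genes and are no result about the family. The 3 genes nearest the members' median were AT5G41890, AT1G20120 and AT3G48460. AT5G41890 had 52.2% on day 1 and 33.7% on day 8, AT1G20120 had 44.7% and 29.2%, and AT3G48460 had 40.6% and 26.6%. AT5G41890 and AT1G20120 lay at -0.04 and -0.19 (log2) from their local no-signal values on day 1, where weak signals fall. AT3G48460 lay at 0.12 from its own on day 8.

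**Figure D1:**
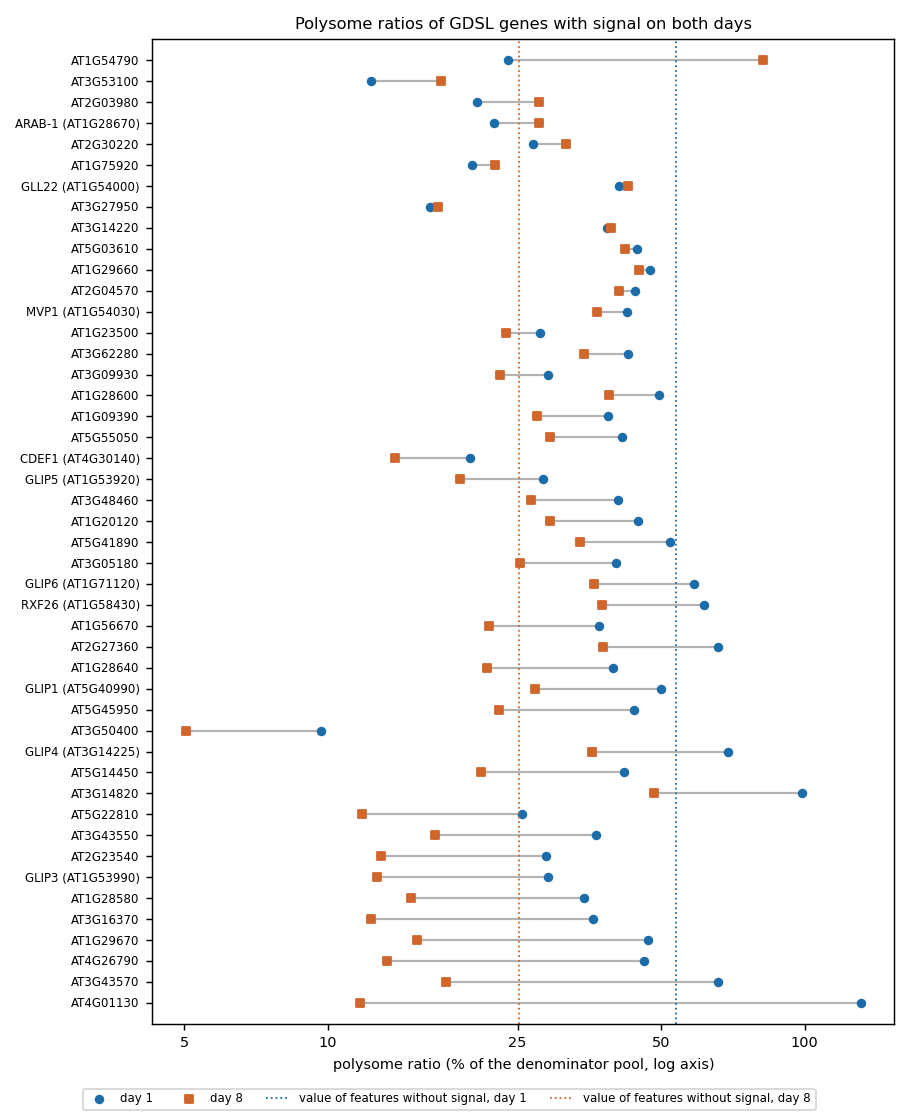
Polysome ratio (percent, log axis) of the 46 GDSL genes with signal on both days, 1 row per gene, ordered by change. Circles are day 1, squares day 8, and dotted lines mark the value shared by features without signal (53.8% and 25.1%). The 9 genes at the top were higher on day 8, and AT1G54790 at the top and AT4G01130 at the bottom stand well apart from their neighbours.

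**Figure D2:**
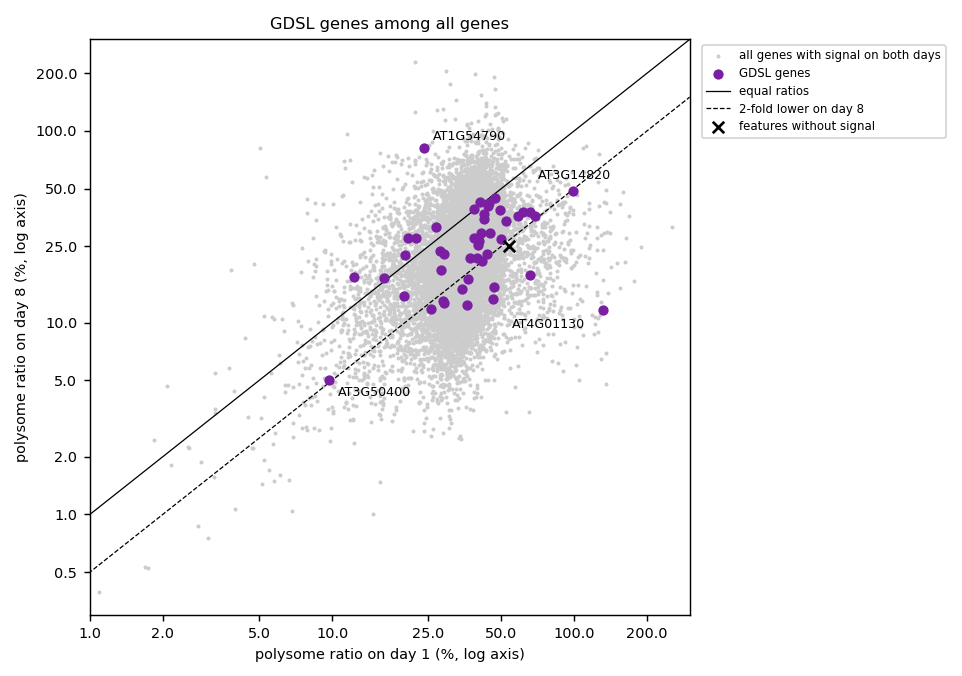
Polysome ratio on day 8 against day 1 (percent, log axes) for all 19696 genes with signal on both days (grey) and the 46 GDSL genes (purple), with the line of equal ratios, the line of a 2-fold lower ratio on day 8 and the point of features without signal. The GDSL genes spread more widely along the day 1 axis than most genes do, and 11 lie below the 2-fold line.

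Among the numbered GDSL lipases, GLIP1 to GLIP7, 5 had signal on both days and all 5 lay below the median gene, with changes from -1.20 to -0.58. GLIP1 is a secreted lipase known for resistance to fungal infection through ethylene signalling. It had 49.9% on day 1 and 27.2% on day 8 (log2 change -0.88), close to the local no-signal values of 51.4% and 24.9%. GLIP3 had 29.0% and 12.7% (-1.20), the sole member of this group past 2-fold. GLIP5 had 28.3% and 18.9% (-0.58). The ratios of these genes differed on each day: GLIP3 and GLIP5 were low on day 1, while GLIP4 had 68.9% and 35.8% (-0.94) and GLIP6 had 58.5% and 36.1% (-0.69), both above the shared no-signal value on both days. GLIP6 lay 0.15 (log2) above its local no-signal value on day 1, where weak signals fall. Relative to the median gene GLIP5 and GLIP6 lay at -0.06 and -0.17, less than the usual spread between probes of a gene. GLIP1, GLIP4 and GLIP3 lay at -0.36, -0.42 and -0.67. GLIP2 and GLIP7 had no signal on either day. In all genes 50.0% lie below the median gene, and the group was put together with earlier results of these data known, so its count is a description.

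Of the 5 members grouped with the myrosinase-associated proteins, 3 had signal on both days, and these had nearly the same ratio on each. MVP1, known also as GOLD36 and ERMO3 and needed for normal organisation of the endomembrane system, had 42.4% on day 1 and 36.7% on day 8 (log2 change -0.21). GLL22, a GDSL lipase-like protein of the same run of neighbours, had 40.8% and 42.5% (0.06). AT3G14220, on another chromosome, had 38.5% and 39.2% (0.02). All 3 genes thus lay between 36.7% and 42.5% on both days, all 3 were above the median gene in change (50.0% of all genes are), and their differences between days were smaller than the usual spread between probes of a gene. This list too was made with earlier results of these data known, and its count is a description. On day 8 they stood at rank percentiles 81.7, 90.5 and 86.0 among all genes. Of the other members of this group, AT1G54010 (GLL23 among its synonyms) had signal on day 1 alone, at 33.0%, and AT1G54020 had none on either day. ESM1, a modifier of glucosinolate breakdown that belongs to the same group but carries no GDSL in its description, had no signal on either day.

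Of the 4 genes on the cuticle list 2 had signal on both days, and of the 6 on the list around the pollen coat lipases 1 had, against 77.5% of all genes. CDEF1, a cutinase known from pollen and pollen tubes, had 19.9% on day 1 and 13.8% on day 8 (log2 change -0.52), low on day 1 (rank percentile 4.61) and equal to the median gene in change. AT5G33370 and AT2G42990, the other members of the cuticle list, had signal on day 1 alone, with 44.2% and 39.2%. LTL1, a lithium-tolerance lipase outside the GDSL descriptions, had 39.6% and 29.3% (-0.44). In the run of genes that holds the pollen coat lipases EXL4 and EXL6, both without signal, the members AT1G75890, AT1G75900 and AT1G75920 differed from each other. AT1G75920 had 20.0% on day 1 and 22.4% on day 8 (0.17), AT1G75900 had 83.4% on day 1 with no signal on day 8, and AT1G75890 had no signal on either day. The pollen and anther markers GRP17, AGP6 and AGP11 had signal on both days beside these values, and their part in the values was not tested. FXG1, an alpha-fucosidase with the same fold that acts on cell wall xyloglucan, is likewise outside the GDSL descriptions and had 41.3% and 45.3% (0.13).

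The lowest change of the family was that of AT4G01130, with 131% on day 1 and 11.7% on day 8, a log2 change of -3.48. Its day 1 value is above what a share of total RNA can reach, the single such value among the members (0.376% of all genes on day 1, 0.183% on day 8), and its day 8 value is at rank percentile 11.2. AT3G43570 had 65.9% and 17.7% (-1.90), AT4G26790 had 46.0% and 13.3% (-1.79) and AT1G29670 had 46.8% and 15.4% (-1.60). These 3 genes were in the upper tail on day 1, at rank percentiles 98.3, 92.4 and 93.2, and in the lower part on day 8. On day 1 AT4G26790 and AT1G29670 lay at -0.21 and -0.19 (log2) from their local no-signal values of 53.1% and 53.5%, where weak signals fall. AT3G16370, with 36.0% and 12.3% (-1.54), began near the median gene instead. It rests on 1 of its 3 probes, since another had signal on day 1 alone, at 55.3%, and the third had none. AT1G28580, with 34.4% and 14.9% (-1.20), and AT2G23540, with 28.6% and 12.9% (-1.15), complete the 8 lowest changes together with GLIP3. The names of these loci in RefSeq are the locus numbers, and nothing is said here of their roles.

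The highest change was that of AT1G54790, with 23.9% on day 1 and 81.8% on day 8. Its log2 change of 1.77, a ratio of 3.42, is at rank percentile 99.8 of all genes, and the day 8 ratio at 99.6. No other member was 2-fold higher, and the next, AT3G53100, had 12.3% and 17.3% (0.49). AT2G03980 had 20.5% and 27.7% (0.44), ARAB-1 had 22.3% and 27.7% (0.31), AT2G30220 had 26.9% and 31.5% (0.23), and AT3G27950 had 16.4% and 17.0% (0.05). Together with AT1G75920 and GLL22 these are the 8 highest changes, and apart from GLL22 they all had day 1 ratios of 26.9% or less. Each of them rests on 1 probe, so the spread between probes is not known for these genes. AT2G03980, ARAB-1 and AT1G75920 lay at 0.11, 0.18 and -0.13 (log2) from their local no-signal values on day 8, where weak signals fall.

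The ends of the day 1 distribution held more members than genes at large, a comparison chosen after the values were seen. Ratios below 25% on day 1 were found for 8 of 46 members (17.4%) against 8.67% of all genes, and ratios above 60% for 6 (13.0%) against 2.27%. At the wider tolerance these were 6 of 33 (18.2%) against 9.87% and 6 (18.2%) against 2.37%. On day 1 that tolerance reaches from the no-signal value to about 60%, so on that array it could remove almost no gene above 60%. The share above 60% at this tolerance is therefore no check of the first. Of the 8 low ones 6 were higher on day 8, where 35.5% of all genes below 25% were. Likewise 6 lay above the median gene, against 59.8% of all genes below 25%. Among them AT1G75920, AT2G03980 and ARAB-1 lay at -0.13, 0.11 and 0.18 (log2) from their day 8 local no-signal values, where weak signals fall. The changes of AT3G27950 (0.05) and AT1G75920 (0.17) were smaller than the usual spread between probes of a gene. The part of weak signals in these counts was not tested. Of the low genes AT3G50400 and CDEF1 were lower on day 8, and AT3G50400, with 9.68% and 5.04% (-0.94), was the lowest member on both days. All 6 high ones lay below the median gene in change, where 92.2% of all genes above 60% did. They were AT4G01130, AT3G14820, GLIP4, AT3G43570, AT2G27360 and RXF26. On day 1 RXF26, AT3G43570, AT2G27360 and GLIP4 lay 0.18, 0.29, 0.3 and 0.34 (log2) above their local no-signal values. AT3G14820 and AT4G01130 lay 0.92 and 1.35 above theirs. The part of weak signals in the count above 60% was not tested. AT3G14820 had 98.6% on day 1 and 48.3% on day 8 (-1.03), second among members on both days, so its rank within the family was the same on both days although its ratio was lower. AT2G27360 had 65.9% and 37.7% (-0.81), and RXF26 had 61.5% and 37.6% (-0.71). A change holds the day 1 value itself, so a low start and a higher change are not independent measurements. Spearman's rho between the 2 days was 0.40 over the 46 genes and 0.39 over all genes, as a description over points that share the same arrays.

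The members with changes between these ends complete the 46, and they were named after the values were seen. Past or next to 2-fold lower were AT5G22810, with 25.5% on day 1 and 11.8% on day 8 (-1.11), AT5G14450, with 41.7% and 20.9% (-0.99), and AT5G45950, with 43.8% and 22.8% (-0.94). AT1G56670 had 37.0% and 21.8% (-0.76), and AT3G05180 had 40.2% and 25.3% (-0.67). The changes of these 5 genes were larger than the usual spread between probes of a gene. However, AT3G05180 lay 0.02 (log2) from its local no-signal value of 24.9% on day 8 and was left out at a tolerance of 0.012. Its change may therefore be no measurement. AT5G45950 and AT1G56670 lay at -0.15 and -0.2 from their local no-signal values on day 8, where weak signals fall. AT5G55050, with 41.3% and 29.2% (-0.50), AT1G09390, with 38.7% and 27.5% (-0.49), and AT3G09930, with 29.0% and 22.9% (-0.34), were nearer the median gene. AT3G62280 had 42.6% and 34.5% (-0.30), and AT1G23500 had 27.9% and 23.6% (-0.24). AT5G55050, AT1G09390, AT3G09930 and AT1G23500 lay at 0.21, 0.16, -0.1 and -0.05 (log2) from their local no-signal values on day 8, where weak signals fall. AT2G04570, with 44.0% and 40.8% (-0.11), and AT5G03610, with 44.4% and 42.0% (-0.08), differed between days by less than probes of a gene usually do, and on day 8 they stood at rank percentiles 88.5 and 89.9.

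Neighbouring members on the chromosome often had different ratios. With up to 2 genes in between, 34 of the 86 members fell into 12 runs of neighbours, the longest of 8 genes from AT1G28580 to AT1G28670. In that run AT1G28580, AT1G28600, AT1G28640 and ARAB-1 had signal on both days, with changes from -1.20 for AT1G28580 to 0.31 for ARAB-1. AT1G28600 had 49.4% and 38.8%, and AT1G28640 had 39.6% and 21.6%. On day 1 AT1G28600 lay at -0.05 (log2) from its local no-signal value of 51.3%, where weak signals fall. The other 4, AT1G28590, AT1G28610, AT1G28650 and AT1G28660, had no signal on either day. The adjacent members AT1G29660 and AT1G29670 had nearly equal ratios on day 1, 47.3% and 46.8%. These lay at -0.12 and -0.19 (log2) from their local no-signal values of 51.5% and 53.5%, where weak signals fall. Whether weak signals made them alike was not tested. On day 8 AT1G29660 had 44.9% (-0.08) and AT1G29670 had 15.4% (-1.60). Likewise GLIP4 (-0.94) and AT3G14220 (0.02) lie side by side, as do GLIP3 (-1.20) and GLL22 (0.06). Both AT3G43550, with 36.5% and 16.8% (-1.12), and its neighbour AT3G43570 (-1.90) were at least 2-fold lower. Probe sequences were not used here, so cross-hybridisation between close copies was not tested. AT3G50400, AT3G14820, AT2G27360, RXF26, the pairs of neighbours and, below, AT1G33811, AT1G75900, AT4G28780, AT1G74460, AT5G03820 and AT1G73610 were named after their values were seen.

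**Figure D3:**
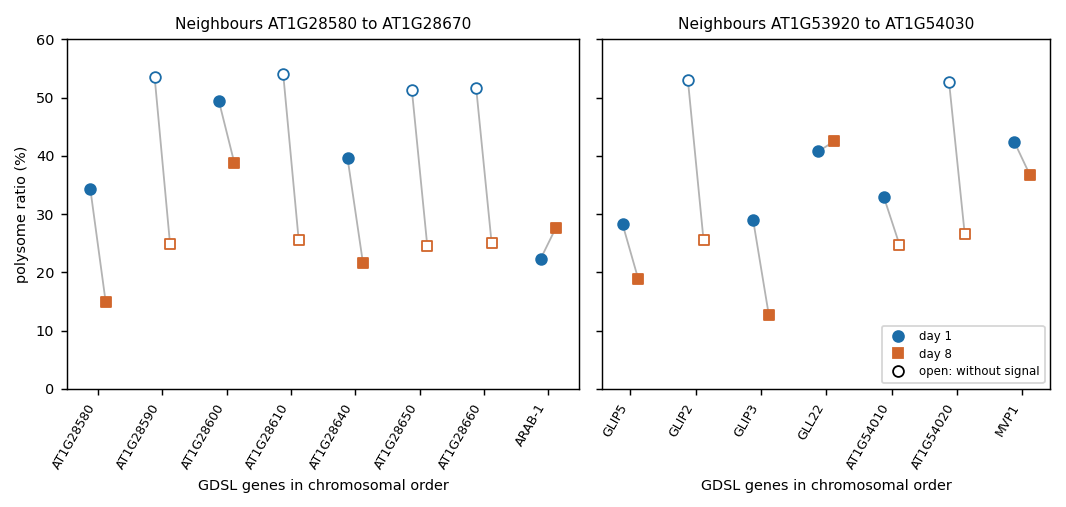
Polysome ratio (percent) on day 1 (circles) and day 8 (squares) of GDSL genes in chromosomal order, for the run from AT1G28580 to AT1G28670 and for 2 adjoining runs between AT1G53920 and AT1G54030. Open symbols are features without signal, which lie at the shared value. The filled ones differ between neighbours, from 22.3% for ARAB-1 to 49.4% for AT1G28600 on day 1. That day 1 value of AT1G28600 lay at -0.05 (log2) from its local no-signal value.

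Genes measured on a single day have a ratio for that day and no change. Among the 9 with signal on day 1 alone, AT1G33811 was lowest, with 9.79%, and AT1G75900 highest, with 83.4%, and AT4G28780 had 78.5%. AT1G74460 had 57.5%, AT5G03820 had 48.5% and AT1G73610 had 32.7%. AT1G33811 was thus far from the no-signal value on day 1 and at it on day 8. The 4 genes with signal on day 8 alone were AT2G19010, with 11.6%, AT5G03590, with 17.8%, AT2G24560, with 19.0%, and AT4G18970, with 24.0%. The first 3 were well below the local no-signal values of 25.6%, 25.4% and 24.8%, and AT4G18970 was close to its own of 24.5%. The 27 genes with signal on neither day lay between 51.2% and 54.1% on day 1 and between 24.3% and 26.6% on day 8. Read as ratios, they would show changes from -1.12 to -0.99, and 25 of them would count as at least 2-fold lower. AT5G37690 is among them, with both of its probes at the no-signal value.

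Other families of lipid and cell wall enzymes give the GDSL genes a frame, by counts and medians alone. Of 34 genes of cutin, suberin and wax synthesis and export, 24 had signal on both days. Medians were 42.4% (day 1) and 24.7% (day 8), with a median change of -0.75. In that list 7 (29.2%) were at least 2-fold lower and none was 2-fold higher, against 25.6% and 1.21% of all genes. GPAT4, an acyltransferase of cutin synthesis, had 44.0% and 8.77% (-2.33), GPAT6, its relative of flower cutin, had 42.3% and 25.0% (-0.76), and KCS6, an elongase of wax synthesis, had 43.3% and 76.6% (0.82). Lipid transfer proteins, small secreted proteins, had signal on both days for 61 of 108 genes, with medians of 37.5% and 19.3%. Their median change was -0.95, and 27 genes (44.3%) were at least 2-fold lower, against 25.6% of all genes. AT4G08670 was lowest in change, with 31.0% and 3.01%, AT3G22600 highest, with 9.25% and 23.7%, and AT3G22570 nearest the median, with 33.7% and 17.5%. Pectin methylesterases and their inhibitors, also secreted, had signal for 54 of 116, with medians of 37.1% and 26.7%. Their median change was -0.53, and 15 genes (27.8%, all genes 25.6%) were at least 2-fold lower. AT5G46970 was lowest, with 105% and 5.04%, AT2G45220 highest, with 19.8% and 40.2%, and AT1G11362 nearest the median, with 24.7% and 16.8%. Phospholipases, which cut membrane phospholipids, had signal for 40 of 52, with medians of 36.1% and 29.3%. Their median change was -0.16, and 3 genes (7.5%, all genes 25.6%) were at least 2-fold lower. PLA2-BETA was lowest, with 34.3% and 6.59%, PLC2 highest, with 39.8% and 68.4%, and AT3G55940 nearest the median, with 50.4% and 44.9%. By median change the GDSL genes lay between the pectin methylesterases and the cutin list. Their interquartile range on day 1 (0.72, log2) was wider than those of the cutin list (0.36), lipid transfer proteins (0.44), pectin methylesterases (0.38) and phospholipases (0.34). The differences between these lists were not tested, and counts of weak signals in the other lists are not given.

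**Figure D4:**
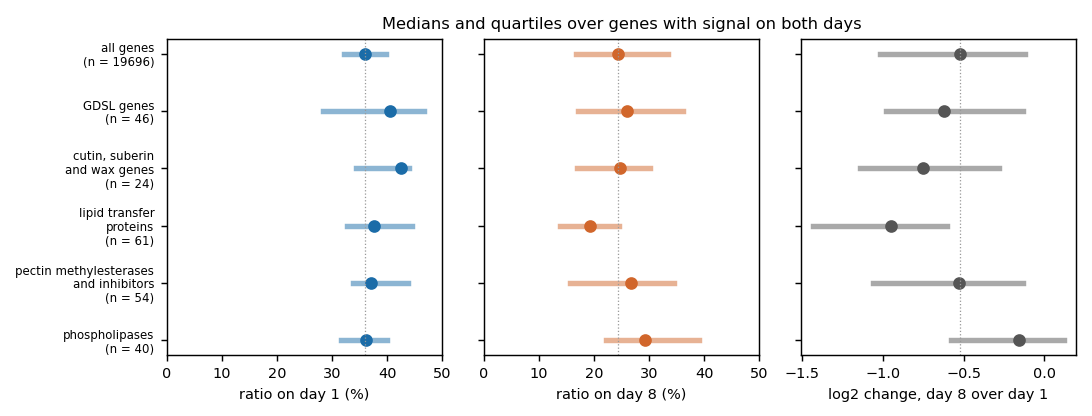
Medians (points) and quartiles (bars) over genes with signal on both days, for all genes, GDSL genes and 4 other families, of the polysome ratio on day 1 and on day 8 (percent) and of the log2 change. Dotted lines mark the median of all genes. The GDSL genes have the widest bar on day 1, from 28.4% to 46.6%, and a median change of -0.62.

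Smaller lists gave few values. Class 3 lipases, which carry another lipase fold, had signal on both days for 7 of 9 genes, with medians of 33.5% and 26.0% and a change of -0.47. AT1G05790 was lowest, with 33.5% and 11.7%, AT5G24230 highest, with 32.6% and 38.1%, and AT3G14075 nearest the median, with 39.1% and 28.3%. Carboxyesterases had signal for 4 of 6, from CXE13, with 38.9% and 8.93%, to CXE18, with 39.4% and 39.1%, and CXE20 nearest their median had 26.5% and 14.5%. Of 18 further genes that carry the SGNH hydrolase description or a name of a GDSL list, grouped after the descriptions were seen, 8 had signal on both days (44.4%). Their medians were 38.0% and 19.8%, with a median change of -1.09, the lowest of these lists, and 4 (50.0%) were at least 2-fold lower, against 25.6% of all genes. AT5G62930 was lowest, with 30.5% and 5.74% (-2.41), AT2G40250 lay nearest their median, with 33.7% and 14.7% (-1.20), and FXG1 was the single gene of these higher on day 8. As in the GDSL genes, fewer of these relatives had signal on both days than the 77.5% of all genes. Unlike the GDSL genes (0.72, log2), the 8 relatives had an interquartile range on day 1 of 0.31, and that of all genes was 0.31.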

How the data were processed

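Polysomal RNA of T87 cells was compared with a second pool, total or nonpolysomal RNA, on 2-colour arrays, 1 per day. The authors deposited log10 polysome ratios for 39102 features, per the file headers and the labels; the log base was taken from the span of the spike-in probes on day 1, -0.831 to 0.931. Scanner steps and normalization are not given in the sources used here, and single-channel intensities were not used. Ratios were converted to log2 and percent. The local value of features without signal was the median of the 30 nearest features within 0.04 (log10) of the negative-control median, and features within 0.006 of it were taken as without signal. This took 93.5% of the negative controls on day 1 and 95.6% on day 8, and 1.56% and 0.625% of the spike-in features. The rule was run on simulated data whose day 1 signals were drawn away from the no-signal median. Its errors for weak signals were therefore not tested there. Of 37478 gene probes, 25920 named 1 locus, 253 were named by RefSeq accession and 31 by symbol; 256 named several loci and 11018 none, and these were not used. Probes of a gene with signal on both days were averaged. RefSeq symbols (assembly TAIR10.1) were found for all 86 loci, of which 12 have a name other than the locus number, and the same table gave the order of genes. Since no source used here names the array's build, coordinates are left out.

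Genes named in the text are those of the GDSL lists fixed by locus, the 8 lowest and 8 highest changes, the 3 nearest the median, genes above 100%, genes with several probes and, where 5 or fewer, genes with signal on a single day; the other members with signal on a day were added after the values were seen. The members and lists were chosen with earlier results of these data known. Called means at least 2-fold, without a test. With 1 array per day, the spread between arrays or cultures cannot be estimated. Repeated spots of 27 probes on the same arrays had a median SD of 0.05 (log2) for the change, which does not hold that spread. Columns of per-sample values left unused numbered 0. Python 3.11.15, pandas 2.3.3, numpy 2.4.6 and scipy 1.17.1 were used.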

Additional observations from a re-analysis of the deposited data

Results flagged for a closer look

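The probe shared by AT3G26420, which encodes an RNA-binding protein, and AT3G26430, a GDSL gene, enters no count above and had signal on both days. It had 33.4% on day 1 and 20.6% on day 8, a log2 change of -0.70. Which of these genes gave the signal was not tested.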

How the results depend on the processing

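Across 9 alternatives and 7 results, 52 of 63 values stayed within 1.5 times (counts) or within the median SD between probes of a gene (medians), and 11 moved further. With features without signal kept, the GDSL median was 49.7% on day 1 and the median change -1.0. These values are over 86 genes, of which 27 sit at the no-signal value. At least 2-fold lower were 43 genes (50.0%, all genes 34.8%), and 2 were at least 2-fold higher (2.33%, all genes 1.02%). Below the median gene lay 57 (66.3%, all genes 50.0%). With the median spike-in change (-0.30 over 10 probes, 9 below 0) set to 0, the median change was -0.33. Then 5 genes were at least 2-fold lower (10.9%, all genes 16.0%). Read with a nonpolysomal denominator, the share in polysomes is the ratio over 1 plus the ratio. The medians were then 28.8% and 20.6%, and 6 genes were at least 2-fold lower (13.0%, all genes 17.7%). With neighbouring genes averaged to 38 values, 7 (18.4%) were at least 2-fold lower, against 25.6% of all genes. Tolerances of 0.003 and 0.012, and of 0.05, chosen after seeing the data, the first probe per gene, and leaving out genes above 100% moved no result past these bounds, though 0.05 left 33 of the 46 genes, so that 11 were 33.3% of those left. Choosing members by a RefSeq description was not run, since the table used holds no descriptions. No paired analysis was possible because each day has 1 array.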
